A study of Mus musculus with 12 samples.

Results

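The 34 genes described here make cholesterol and fatty acids, or control and export their products. They were taken by symbol from a fixed list of names, and all 34 were found among the 24421 genes of the authors' deposited table for CD8 T cells. The study asked what the loss of linker histone H1, a protein that binds nucleosomes and helps to compact chromatin, does to lymphocytes. Its labels describe 12 samples, with 2 animals per genotype for each of B, CD4 T and CD8 T cells of the spleen. The knockout animals are labelled cTKO (called Exp in the sample titles) and the controls WT, and both were C57BL/6. Each genotype was represented by 1 female and 1 male CD8 T cell sample, each a flow cytometry sort of 500000 cells from which polyadenylated RNA was sequenced with paired ends. The age of the animals, the full cTKO alleles and what drives the deletion were not stated in the sources used here.

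Cells make cholesterol from acetyl-CoA through mevalonate, isoprenoid diphosphates, squalene and lanosterol. When membrane sterol is low, SCAP escorts the SREBP transcription factors out of the endoplasmic reticulum for activation, and they switch on the enzymes of this route. When sterol is high, INSIG proteins hold SCAP back, and oxysterols activate the liver X receptors (LXR), which raise sterol export. Fatty acid synthesis is a branch of the same control, led by the product of Srebf1, and activated T cells are known to use both routes to build membranes.

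The table holds a mean normalized count, a log2 fold change with its standard error and p-values per gene, and no sample columns. Whole reads in each of the 4 libraries were worked back from those values for all 34 members. The 2 libraries of a genotype are called larger and smaller by their size factors, which were 1.21 and 0.805 for cTKO and 1.21 and 0.866 for WT. Reads of Xist, which marks female cells, numbered 4871 and 28 in the larger and smaller cTKO library and 479 and 2 in the larger and smaller WT library. The larger library of both genotypes thus matched the female animal and the smaller library the male, and size and sex cannot be told apart. Normalized reads below are reads divided by these size factors. Over the 17606 genes with recovered reads, the totals were 11283863 and 7598343 reads in the larger and smaller cTKO library and 12229702 and 8272818 in the larger and smaller WT library. These genes hold 59.1% of the summed means, so the totals are part of the depth. No header says which way the fold change runs, and cTKO over WT was inferred from the H1 genes. Hist1h1c had 0 and 0 reads in cTKO, against 41 and 56 in WT, Hist1h1d had 0 and 0 against 5 and 11, and Hist1h1e had 0 and 0 against 64 and 112.

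The larger cTKO library stood apart by transcript length, and this bears on every result that follows. The genes tested whose mean was 100 or more were put into 10 classes of equal size by the length of their principal transcript. From the shortest to the longest class, the median log2 ratio of the larger over the smaller cTKO library ran from -0.66 to 0.80, whereas that of the larger over the smaller WT library stayed between 0.00 and 0.10. The median log2 fold change of cTKO over WT ran from -0.26 in the shortest class to 0.57 in the longest. In the smaller libraries alone, the median log2 ratio of cTKO over WT lay between -0.10 and 0.10 in every class. The 17 cholesterol enzymes have transcripts of 1194 to 4787 bases with a median of 2758, and the 4 tested fatty acid genes have transcripts of 3460 to 10050 bases with a median of 7484. Values from the smaller libraries alone and values relative to the length class are therefore given beside some of the main ones. These are the called members, Abca1, the 17 cholesterol enzymes as a set and the 4 tested fatty acid genes. Most other members are given without a value relative to their class. Whether length contributed to any single result was not tested beyond these values.

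**Figure D1:**
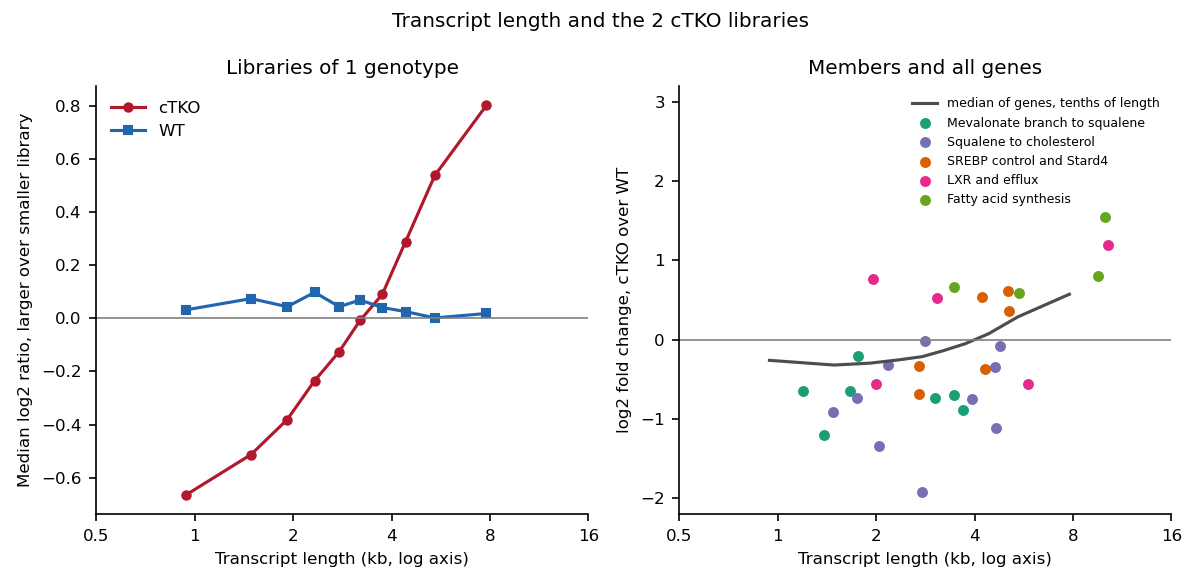
The left plot shows the median log2 ratio of the larger over the smaller library of each genotype (y axis) in 10 classes of transcript length (x axis, kb, log scale), with cTKO as circles and WT as squares. The right plot shows the log2 fold change, cTKO over WT, of the 32 tested members (points, coloured by role) against transcript length, with the median of all genes in each class as a line. The cTKO line climbs with length to 0.80 in the longest class while the WT line stays near 0, and Fasn lies at the long end.

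The sorted cells carried the markers of their label. Cd3e, Cd3d, Cd3g, Cd8a and Cd8b1 had mean normalized counts of 12041 to 31813 in the authors' deposited table, and none passed its test. Cd4 had 1 and 0 reads in cTKO and 1 and 4 in WT, and the macrophage gene Fcgr1 was at 0 in all 4 libraries. Other genes of these lists were higher in cTKO. Zbtb7b, a CD4 lineage factor, rose with 110 and 34 reads in cTKO and 15 and 11 in WT, and so did the integrin gene Itgam with 434 and 138 in cTKO and 34 and 30 in WT, while Cd68, which did not pass the test, had 209 and 76 in cTKO and 76 and 23 in WT. By the authors' adjusted p, 9.77% of all 12972 genes tested rose. Among the tested genes of each list, 9 of 10 memory and effector T cell, 7 of 18 cell cycle and 4 of 5 natural killer genes rose. So did 1 of 2 tested CD4 T cell genes and 1 of 7 tested myeloid genes. On the same test 2 of 6 naive T cell genes and 1 of 5 tested B cell genes fell, against 3.61% of all genes tested. Summed normalized reads of the cell cycle list were 21604 and 14686 in cTKO and 14604 and 11258 in WT. Those of the 7 memory and effector genes with recovered reads were 22445 and 22310.2 in cTKO and 10641 and 8950.1 in WT. The natural killer list summed to 6641 and 6158 in cTKO and 1077 and 1508 in WT. Most of that sum was Eomes, with 4757 and 4719 in cTKO and 902 and 1336 in WT. Ncr1, the gene of that list that was not called, had 22 and 1 reads in cTKO and 2 and 4 in WT, so its groups overlapped. The 9 myeloid genes with recovered reads summed to 620.3 and 304 in cTKO and 123 and 88.9 in WT. The B cell list summed to 944 and 273 in cTKO and 1548 and 1124 in WT. The part of these differences in the results below was not tested, and in sorted bulk cells fewer cells of a type and less RNA per cell cannot be told apart.

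Among the 34 members, 4 of the 17 cholesterol enzymes fell and Fasn, the fatty acid synthase, rose in cTKO CD8 T cells. An adjusted p was given for 32 members in the authors' deposited table, and Fads2 and Scd1 had too few reads for one. Of these 32, 4 fell (12.5%, against 3.61% of all 12972 genes tested) and 1 rose (3.12%, against 9.77% of all genes tested) at an adjusted p under 0.05. The 4 that fell, Fdps, Sqle, Lss and Msmo1, are all enzymes of cholesterol synthesis. Both cTKO values were under both WT values in 17 of the 32 (53.1%, against 27.5% of the 12425 tested genes with recovered reads), and above both in 6 (18.8%, against 31.9%). The median log2 fold change of the 32 was -0.36 in the authors' deposited table, that of all genes tested was 0.04, and that of the 9268 genes tested with a mean of 100 or more was -0.10. The p-values rest on the spread between 1 female and 1 male library per genotype, in which animal, sex and library size cannot be told apart. An exact permutation test of 2 against 2 cannot go below p = 0.333.

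**Figure D2:**
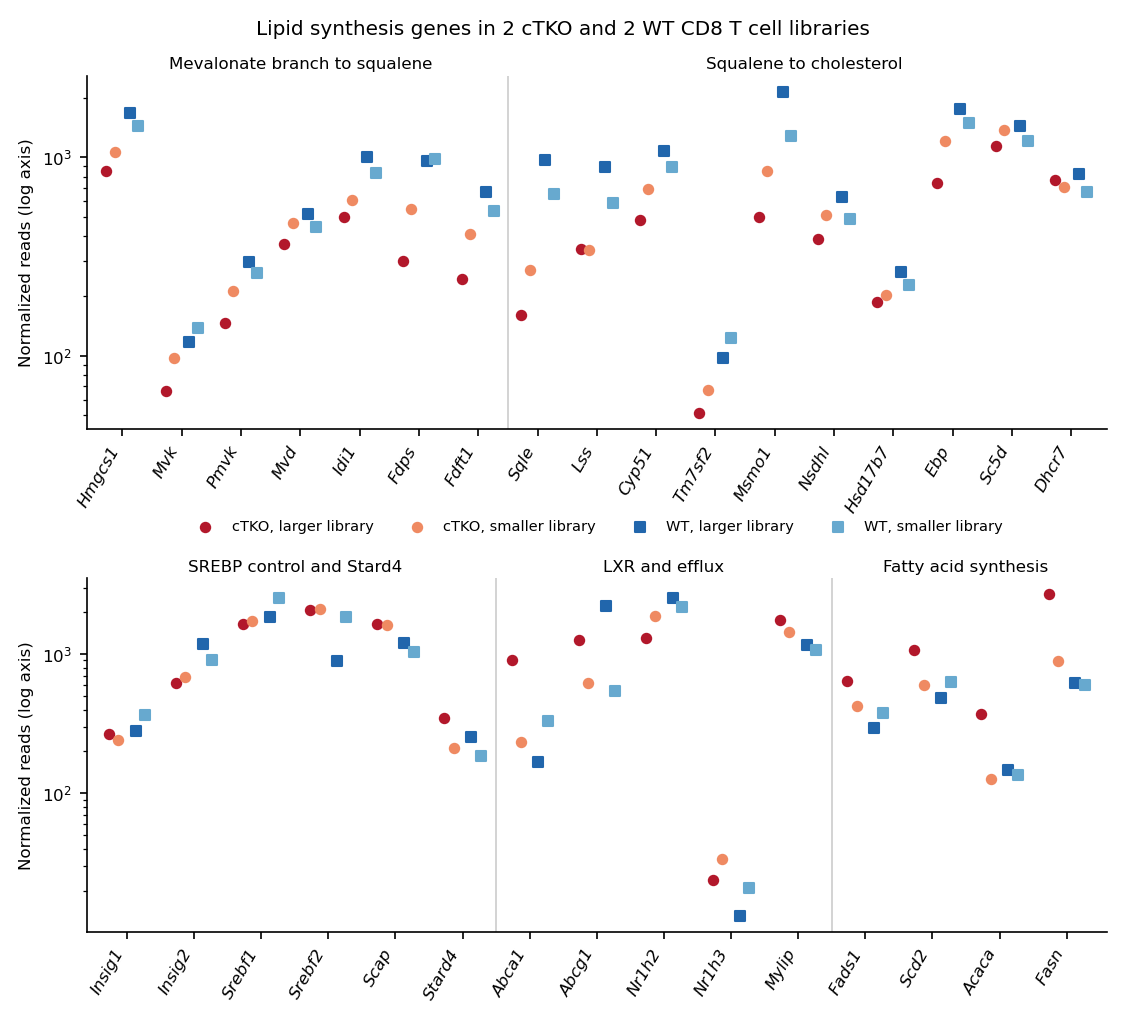
Normalized reads (log axis) of 32 members in the larger and smaller cTKO library (circles, left of each gene) and the larger and smaller WT library (squares, right), grouped by role. Both cTKO points lie below both WT points for 13 of the 17 cholesterol enzymes. The larger cTKO library is the highest of the 4 for Fasn, Acaca, Scd2, Fads1, Abca1, Mylip, Scap and Stard4.

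The promoter windows of 3 of the 5 called members were available, and they are shown with that of Hmgcs1 because these windows differ in the letters that SREBP and its partner NF-Y are known to bind. The sequences are the 250 bases before the RefSeq gene start on build GRCm38.p6, each 5′ to 3′ on the gene's own strand. They lie at chr8:64733579-64733828 for Msmo1 (minus strand), chr10:76531355-76531604 for Lss (plus strand), chr13:119690101-119690350 for Hmgcs1 (plus strand) and chr11:120824548-120824797 for Fasn (minus strand). Capitals mark CCAAT, the NF-Y box, and TCACNCCAC, a sterol regulatory element core, on either strand, so that ATTGG is CCAAT read from the other strand.
Msmo1: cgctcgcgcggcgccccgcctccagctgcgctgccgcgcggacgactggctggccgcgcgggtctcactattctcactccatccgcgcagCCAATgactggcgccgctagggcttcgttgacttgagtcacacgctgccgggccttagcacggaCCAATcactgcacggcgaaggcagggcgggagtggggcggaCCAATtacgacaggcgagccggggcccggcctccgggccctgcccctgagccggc
Lss: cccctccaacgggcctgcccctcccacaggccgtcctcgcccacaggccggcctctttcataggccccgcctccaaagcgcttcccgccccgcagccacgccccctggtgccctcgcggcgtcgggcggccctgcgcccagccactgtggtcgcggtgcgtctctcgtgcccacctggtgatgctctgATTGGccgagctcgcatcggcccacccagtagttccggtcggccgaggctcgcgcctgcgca
Hmgcs1: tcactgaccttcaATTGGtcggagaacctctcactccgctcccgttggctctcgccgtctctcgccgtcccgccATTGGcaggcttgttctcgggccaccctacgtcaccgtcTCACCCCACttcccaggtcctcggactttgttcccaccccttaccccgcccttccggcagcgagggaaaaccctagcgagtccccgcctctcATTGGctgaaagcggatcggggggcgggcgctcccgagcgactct
Fasn: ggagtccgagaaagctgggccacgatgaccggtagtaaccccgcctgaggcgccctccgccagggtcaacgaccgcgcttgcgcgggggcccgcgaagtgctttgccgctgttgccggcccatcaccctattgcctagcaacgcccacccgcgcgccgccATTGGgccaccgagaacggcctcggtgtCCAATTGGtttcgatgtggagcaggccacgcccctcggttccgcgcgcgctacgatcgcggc
Msmo1 holds CCAAT at 160, 96 and 55 bases before the start, and Lss holds it 62 bases before the start. Hmgcs1 was added after its letters were seen, as the only member whose window holds TCACNCCAC, which starts 137 bases before its gene. In Fasn, CCAAT and its reverse overlap in the run CCAATTGG.

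Windows of 300 bases, the 250 before and 50 after the start, were given by RefSeq for 26 members. No window was given for Fdps, Fdft1, Sqle, Stard4, Abcg1, Fads1, Scd1 and Scd2. CCAAT stood on either strand in the windows of 20 of the 26 members, against 41.1% of the 27025 genes with a window. It was present for all 5 mevalonate genes and all 9 sterol genes with a window, for 4 of 5 genes of SREBP control, for 1 of 4 LXR genes and for 1 of 3 fatty acid genes. TCACNCCAC was present for 1 of 26 members, against 1.44% of genes, and CACGTG, the E-box that SREBP can also bind, for 6 of 26, against 8.09% of genes. The LXR element, searched as a strict repeat on both strands, was found for 0 members and 0.0148% of genes. Matching letters describe the window and do not show binding. Only these strict letters were searched, so a window without a match is not shown to lack a binding site.

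The 7 genes of the mevalonate branch run from acetyl-CoA units to squalene, and their summed normalized reads were 2476 and 3420.0 in the larger and smaller cTKO library, against 5233 and 4655 in the larger and smaller WT library. The groups did not overlap. The authors' deposited table gave all 7 a negative fold change, against 6235 of all 12972 genes tested, and a median log2 of -0.69. Of the 9268 genes tested with a mean of 100 or more, 5238 were negative. In this branch 1 of the 7 was called lower (14.3%, against 3.61% of all genes tested) and 0 higher (against 9.77%).

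Fdps, which makes the farnesyl diphosphate shared by sterols, prenylated proteins and dolichol, was the member of this branch that fell. It lies at chr3:89093588-89101959 on the minus strand (GRCm38, GENCODE annotation). Normalized reads were 299 and 552 in the larger and smaller cTKO library, against 960.1 and 986 in the larger and smaller WT library. Both cTKO libraries were lower, and the WT libraries lay close together while the cTKO libraries did not. The log2 fold change was -1.20 with a standard error of 0.37 and an adjusted p of 0.0144 in the authors' deposited table, which is 2.29-fold lower in cTKO. Within the larger libraries the log2 ratio was -1.68, within the smaller ones -0.84. Relative to genes of its length the log2 fold change was -0.88 with a Benjamini-Hochberg adjusted p of 0.110, and by limma the call was also lost without the larger cTKO library (adjusted p = 0.0999), the larger WT library (0.229) or the smaller WT library (0.189).

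Hmgcs1, the HMG-CoA synthase that starts the branch, had the highest mean of it. Normalized reads of Hmgcs1 were 856 and 1068 in the larger and smaller cTKO library, against 1666 and 1447 in the larger and smaller WT library. The groups did not overlap, but the log2 fold change of -0.69 (standard error 0.31) did not pass the test, with an adjusted p of 0.127 in the authors' deposited table. Idi1, the isomerase that readies isoprene units for joining, had 499 and 611 normalized reads in cTKO, against 1007 and 837 in WT. Fdft1, the squalene synthase that commits carbon to sterols, had 243 and 412 in cTKO, against 669 and 538 in WT. Neither passed the test, with log2 fold changes of -0.73 and -0.88 and adjusted p-values of 0.123 and 0.106 in the authors' deposited table, and in neither did the groups overlap.

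The kinases Mvk and Pmvk, which phosphorylate mevalonate in turn, each stood at -0.65 in log2 in the authors' deposited table and did not pass its test. Mvk had 80 and 78 reads in cTKO and 142 and 120 in WT, and Pmvk had 176 and 170 in cTKO and 362 and 226 in WT. Mvd, the decarboxylase that follows them, had 365 and 468 normalized reads in cTKO and 516 and 447 in WT, so its groups overlapped.

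The 10 genes of the second branch turn squalene into lanosterol and then into cholesterol. Their summed normalized reads were 4767 and 6235 in the larger and smaller cTKO library, against 10103 and 7636 in the larger and smaller WT library. The authors' deposited table called 3 of the 10 lower (30%, against 3.61% of all genes tested) and 0 higher (against 9.77%). All 10 fold changes were negative, as were 6235 of all 12972 genes tested, and the median log2 was -0.74.

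Sqle, the squalene epoxidase, a rate-limiting step of the sterol branch and a known SREBP target, fell the most of the 32 tested members. It lies at chr15:59315077-59331192 on the plus strand. Normalized reads of Sqle were 159.9 and 269.6 in the larger and smaller cTKO library, against 974 and 652 in the larger and smaller WT library. Even the higher cTKO library was below the lower WT library. The log2 fold change was -1.93 with a standard error of 0.39 and an adjusted p of 2.74e-05 in the authors' deposited table, a 3.80-fold lower level in cTKO. The log2 ratio was -2.61 within the larger libraries and -1.28 within the smaller ones, and -1.71 relative to genes of its length. Among the 14 alternatives the call was lost in 1, without the larger WT library, where limma gave an adjusted p of 0.0835.

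Msmo1, the methylsterol oxidase that starts the removal of methyl groups from the sterol ring, fell as well. It lies at chr8:64718139-64733792 on the minus strand, so that most of the promoter window printed above lies inside the gene as GENCODE annotates it. Msmo1 had 499 and 852 normalized reads in the larger and smaller cTKO library, against 2146 and 1284 in the larger and smaller WT library. The groups did not overlap, and the libraries of each genotype were themselves far apart. The log2 fold change of Msmo1 was -1.35 with a standard error of 0.38 and an adjusted p of 0.00576 in the authors' deposited table, 2.54-fold lower in cTKO. It was -1.05 relative to genes of its length, and -2.11 within the larger against -0.59 within the smaller libraries. By limma the call was lost without the larger cTKO library (adjusted p = 0.125) and without the larger WT library (0.457).

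Lss, the cyclase that folds squalene epoxide into lanosterol, was the third sterol gene called. It lies at chr10:76531588-76557138 on the plus strand. Lss had 345 and 343 normalized reads in the larger and smaller cTKO library, against 896 and 589 in the larger and smaller WT library. Here the cTKO libraries were close together and the WT libraries were not. Its log2 fold change was -1.11 with a standard error of 0.36 and an adjusted p of 0.0189 in the authors' deposited table, 2.16-fold lower in cTKO. Limma on the recovered reads gave -1.09 with an adjusted p of 0.0547, and the call was lost in 7 of 14 alternatives, with adjusted p-values up to 0.681 (without the larger WT library). Its transcript is longer than those of the other called cholesterol enzymes, and relative to genes of its length the log2 fold change was -1.19. Within the larger libraries the log2 ratio of Lss was -1.38, within the smaller ones -0.78.

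The other 7 genes of the sterol branch did not pass the test. Cyp51, the lanosterol demethylase, had 483 and 689 normalized reads in cTKO and 1081 and 890.3 in WT, and Ebp, a sterol isomerase, had 745 and 1213 in cTKO and 1760 and 1493 in WT. The groups of both were apart, with log2 fold changes of -0.75 and -0.73 and adjusted p-values of 0.129 and 0.145 in the authors' deposited table. Tm7sf2, a sterol reductase, had 62 and 54 reads in cTKO and 119 and 107 in WT, and the authors' deposited table gave a log2 fold change of -0.91 and an adjusted p of 0.262.

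The last steps differed least. Dhcr7, the reductase that completes cholesterol, had 771 and 708 normalized reads in cTKO and 823 and 672 in WT, and Sc5d, the desaturase before it, had 1140 and 1376 in cTKO and 1432 and 1215 in WT. The groups of both overlapped, with log2 fold changes of -0.02 and -0.07 and standard errors of 0.32 and 0.31 in the authors' deposited table. Nsdhl and Hsd17b7, which act with Msmo1 in removing methyl groups, had log2 fold changes of -0.31 and -0.34 there, and the groups of Nsdhl overlapped.

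Over both branches, the 17 enzymes summed to 7243 and 9655 normalized reads in the larger and smaller cTKO library, against 15336 and 12291 in the larger and smaller WT library. The sum was 2.12-fold lower in cTKO in the larger libraries and 1.27-fold lower in the smaller ones. Both cTKO values were under both WT values for 13 of the 17 (76.5%, against 27.5% of tested genes with recovered reads), and 9 of the 17 had an unadjusted p under 0.05 in the authors' deposited table, against 3416 of all 12972 genes tested. Within the larger libraries 17 of 17 enzymes were lower in cTKO, with a median log2 ratio of -1.01. Within the smaller libraries 13 of 17 were, with a median of -0.38. Of the 8160 genes tested with a mean of 50 to 2000 and recovered reads, 4204 were lower in the larger libraries and 4153 in the smaller ones. Set against genes of the same length, 15 of 17 lay below the median of their class, and the median difference was -0.56 in log2 fold change. In the smaller libraries alone, where length made little difference, 13 of 17 lay below their class and the median difference was -0.34.

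**Figure D3:**
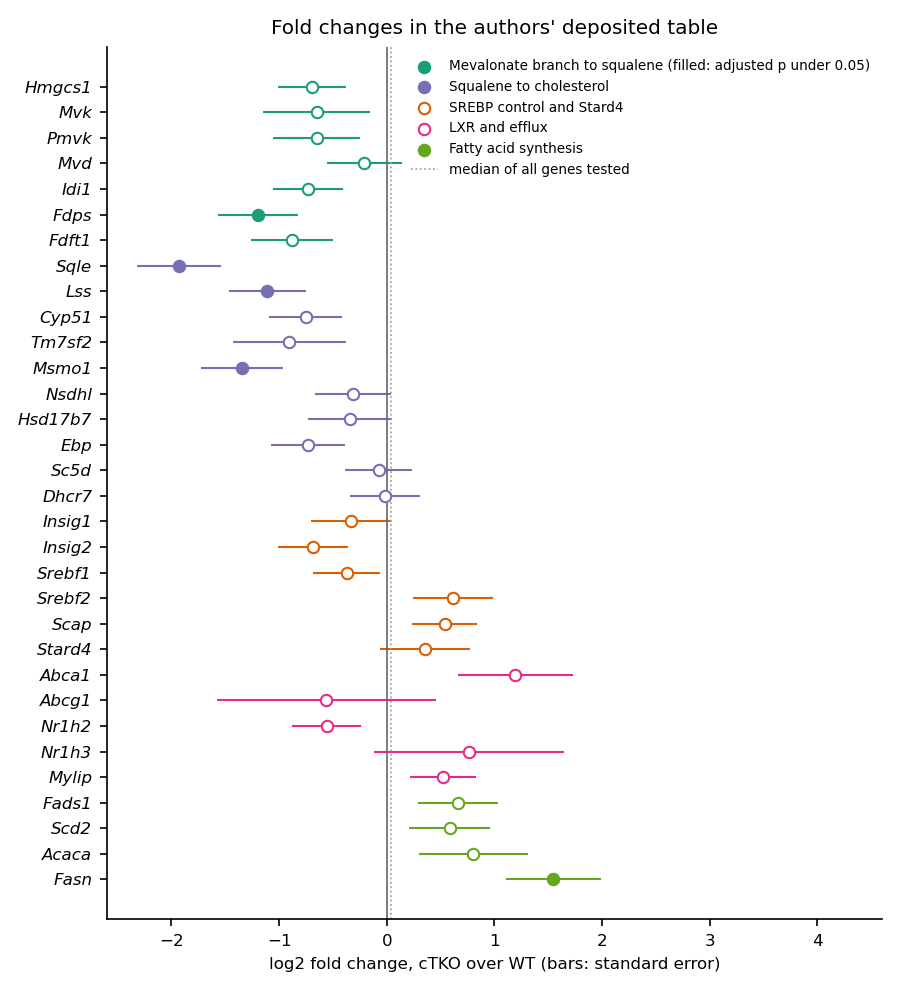
Log2 fold change of cTKO over WT (x axis) with its standard error (bars) for the 32 tested members in pathway order, from the authors' deposited table. Filled points had an adjusted p under 0.05, and the dotted line is the median of all genes tested. All 17 cholesterol enzymes lie left of 0, from -1.93 for Sqle to -0.02 for Dhcr7, and the 4 fatty acid genes lie right of it.

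None of the 6 genes of sterol sensing and transport passed the test in the authors' deposited table. Of all genes tested, 3.61% were called lower and 9.77% higher there. The median log2 fold change of the 6 was 0.01. Srebf2, which encodes the SREBP that mainly drives cholesterol genes, had 2064 and 2104 normalized reads in the larger and smaller cTKO library, against 892 and 1836 in the larger and smaller WT library. Both cTKO libraries were above both WT libraries, and the WT libraries differed more from each other than the smaller WT library did from either cTKO library. Its log2 fold change was 0.61 with a standard error of 0.37 and an adjusted p of 0.289 in the authors' deposited table. Srebf1, whose SREBP products lean to fatty acid genes, had 1653 and 1738 in cTKO and 1850.3 and 2535 in WT, with a log2 fold change of -0.37 and an adjusted p of 0.476 in the same authors' deposited table.

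Scap, the escort of both, had 1637 and 1619.9 normalized reads in cTKO and 1205 and 1037 in WT, and the groups were apart. Insig2, 1 of the 2 retention proteins, had 625 and 679.5 in cTKO and 1187 and 912 in WT, and the groups were apart in the other direction. Insig1, its partner and itself a known SREBP target, had 268 and 243 in cTKO and 282 and 364 in WT. Adjusted p-values in the authors' deposited table were 0.245 for Scap, 0.149 for Insig2 and 0.616 for Insig1. Stard4, a carrier of cholesterol between membranes, had 349 and 212 in cTKO and 252 and 186 in WT, and its groups overlapped.

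The 5 genes of the LXR branch also held no call, against 3.61% of all genes tested called lower and 9.77% higher. Their median was 0.53 in log2 in the authors' deposited table. Abca1, the pump that loads cholesterol onto apolipoproteins and a known LXR target, had 907 and 235 normalized reads in the larger and smaller cTKO library, against 169 and 331 in the larger and smaller WT library. The groups overlapped, since the smaller cTKO library lay between the WT libraries. Its log2 fold change was 1.20 with a standard error of 0.54 and an adjusted p of 0.125 in the authors' deposited table. Limma called it higher with a term for the larger and smaller library (log2 1.011, adjusted p = 0.0443). By limma the log2 fold change was 1.98 without the smaller cTKO library and 0.03 without the larger cTKO library. Relative to genes of its length, the log2 fold change of Abca1 was 0.62, with a Benjamini-Hochberg adjusted p of 0.542. Abcg1, a second efflux transporter, had 1256 and 616 in cTKO and 2216 and 546 in WT, and its standard error of 1.02 in the authors' deposited table was the largest of the 32 tested members.

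Nr1h2, the LXR found in most tissues, had 1309 and 1893 normalized reads in cTKO and 2544 and 2165 in WT, and the authors' deposited table gave it an adjusted p of 0.262 and a log2 fold change of -0.56. Nr1h3, the other LXR, had only 29 and 27 reads in cTKO and 16 and 18 in WT. Mylip, which encodes a ubiquitin ligase that LXR induces to limit lipoprotein uptake, had 1747 and 1449 normalized reads in cTKO and 1159 and 1062 in WT. The groups of all 3 were apart, Nr1h2 lower and Nr1h3 and Mylip higher in cTKO, and none passed the test.

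Of the 4 tested fatty acid genes, Fasn, the synthase that builds palmitate, rose and the other 3 did not pass the test. That is 25% called higher, against 9.77% of all genes tested. Fasn lies at chr11:120805846-120824547 on the minus strand. Its normalized reads were 2684 and 898 in the larger and smaller cTKO library, against 622 and 604 in the larger and smaller WT library. Both cTKO libraries were above both WT libraries, and the larger cTKO library was 2.99 times the smaller one. The log2 fold change of Fasn was 1.55 with a standard error of 0.44 and an adjusted p of 0.00586 in the authors' deposited table, 2.92-fold higher in cTKO. It was 2.11 within the larger libraries and 0.57 within the smaller ones, and without the larger cTKO library limma gave 0.55 with an adjusted p of 0.246. The transcript of Fasn has 10050 bases and falls in the longest class, and relative to that class the log2 fold change was 0.98 with an adjusted p of 0.141 after Benjamini-Hochberg adjustment. The call was lost in 8 of 14 alternatives, limma on all 4 libraries among them (adjusted p = 0.0680), and kept by limma with a term for the larger and smaller library (adjusted p = 0.00250).

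Acaca, the carboxylase that supplies malonyl-CoA to Fasn, had 369 and 127 normalized reads in the larger and smaller cTKO library, against 148 and 136 in the larger and smaller WT library. Scd2, a desaturase that makes monounsaturated fatty acids, had 1066 and 604 in cTKO and 487 and 629 in WT. In both genes the larger cTKO library was the highest and the smaller one was not above WT, so the groups overlapped. Fads1, a desaturase of polyunsaturated fatty acids, had 638 and 422 in cTKO and 293 and 379 in WT, and its groups were apart. The log2 fold changes of Acaca, Scd2 and Fads1 were 0.80, 0.58 and 0.66 with adjusted p-values of 0.314, 0.322 and 0.247 in the authors' deposited table. Relative to genes of their transcript length they were 0.23, 0.30 and 0.80. For the 4 tested fatty acid genes, Fasn included, the median difference from the length class was 0.55, and 0 lay below their class. In the smaller libraries alone the median difference was 0.08, and 2 of the 4 lay below their class.

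Scd1, the main liver desaturase, had 1 and 1 reads in cTKO and 0 and 1 in WT, and Fads2 had 1 and 1 reads in cTKO and 0 and 0 in WT. These counts are at or below a floor of 3 reads, and no fold is given. The 6 fatty acid genes together summed to 4758 and 2054 normalized reads in the larger and smaller cTKO library, against 1549.7 and 1749 in the larger and smaller WT library. That is 3.07-fold higher in cTKO in the larger libraries and 1.17-fold higher in the smaller ones. Without Fasn the sums were 2074 and 1155 in cTKO, against 928 and 1145.5 in WT, close to each other in the smaller libraries.

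**Figure D4:**
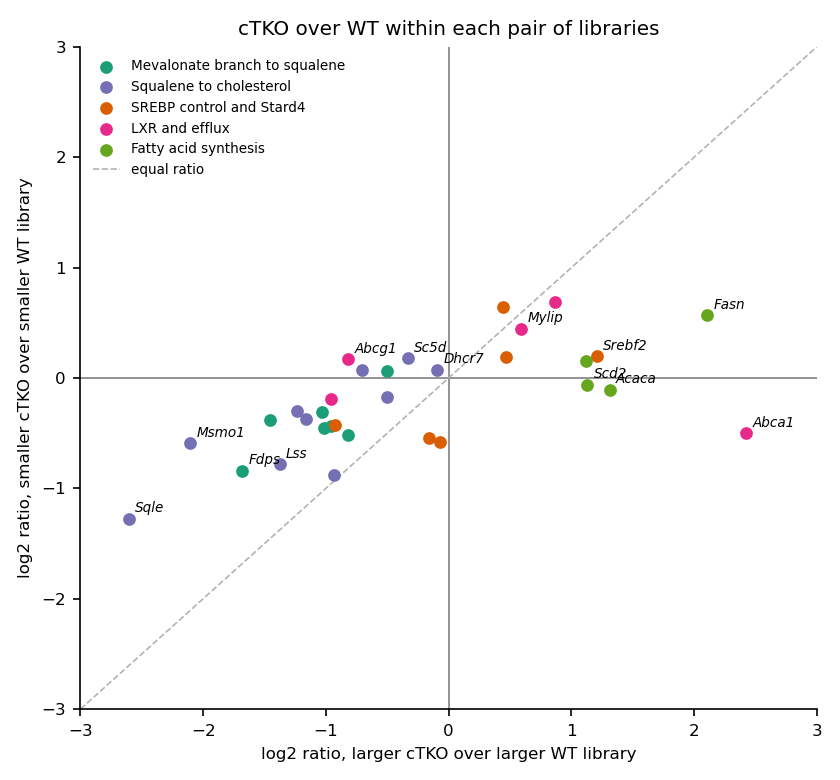
Each point is a tested member, with the log2 ratio of the larger cTKO over the larger WT library on the x axis and of the smaller cTKO over the smaller WT library on the y axis. The dashed line marks equal ratios. Sqle lies at -2.61 and -1.28 and Fasn at 2.11 and 0.57, both nearer 0 in the smaller libraries, and Abca1 lies at 2.43 and -0.50.

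Per kb of transcript, the order of the members' levels also differed between the genotypes. Nr1h2 was highest in both, with 655 and 947 normalized reads per kb in cTKO and 1272 and 1083 in WT, and Ebp came next with 428 and 696 in cTKO and 1009.6 and 857 in WT. In cTKO the ranges of Nr1h2 and Ebp overlapped, and in WT they did not. Sqle ranked 24th in cTKO and 10th in WT, and Fasn ranked 16th in cTKO and 27th in WT. Msmo1 ranked 7th in cTKO with 244 and 417 per kb, against 3rd in WT with 1049.8 and 628. These ranks are means of 2 libraries each and were not tested.

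A list of 36 further genes of sterol and fatty acid metabolism was examined as well. The authors' deposited table gave 31 of them an adjusted p, with 2 called higher (6.45%, against 9.77% of all genes tested), 1 called lower (3.23%, against 3.61%) and a median log2 of -0.32, so that both shares were near those of all genes. Lpin1, a phosphatidate phosphatase of glyceride synthesis, had 8665 and 7106 normalized reads in the larger and smaller cTKO library, against 1399 and 1513 in the larger and smaller WT library. The libraries of each genotype were close together, and the log2 fold change was 2.44 with a standard error of 0.29 and an adjusted p of 2.4e-14 in the authors' deposited table. Cyp7b1, an oxysterol hydroxylase, had 16 and 16 reads in cTKO and 0 and 0 in WT, at least 11.2-fold higher against a floor of 3 reads over both WT libraries, with an adjusted p of 0.0149 in the authors' deposited table. Its few reads set the precision, and this floor covers counting error only.

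Ggps1, the geranylgeranyl diphosphate synthase that acts just after Fdps, fell, with 1063 and 1138 normalized reads in cTKO, against 2224 and 1972 in WT. Its log2 fold change was -0.93 with a standard error of 0.30 and an adjusted p of 0.0195 in the authors' deposited table, and by limma on all 4 libraries it was not called. Acat2, the thiolase that feeds Hmgcs1, had 992 and 1366 normalized reads in cTKO and 2213 and 1441 in WT, and its adjusted p was 0.227 in the authors' deposited table. Acly, which makes cytosolic acetyl-CoA for both pathways, had 5078 and 3978 in cTKO and 6646 and 4743 in WT, and the groups overlapped.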

How the data were processed

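Polyadenylated RNA of sorted splenic CD8 T cells from 2 cTKO and 2 WT mice was compared. STAR and DESeq2, and the builds mm10 and GRCm38.p6, are named in the submitters' processing notes, while versions, counting tool, strand and annotation were not stated in the sources used here. Per the file headers, the mean normalized count is a signal from size-factor-scaled reads, made by the authors. The log2 fold change with its error, the Wald score, the p-value and the Benjamini-Hochberg adjusted p-value are those the authors deposited. The direction of the fold change is not in the header and was read from the H1 genes.

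The main test is the authors' own, called at an adjusted p under 0.05 over 12972 genes. Each mean is a sum of whole reads in 4 libraries times the worth of 1 read, and whole reads were searched that also return the deposited fold change in a negative binomial fit, within 2e-08 on the log2 scale (2e-09 from a mean of 1000, and the mean alone below 15). A single solution was found for 17606 of 17619 genes (99.93%), up to a mean of 5000 (7000 for listed genes). On simulated data, all 300 genes at each of 3 levels from a mean of 15 to 2000 were recovered correctly. Those data were made with the same fit and size factors as the search, so they test the search and not the match to the authors' fit. Means above 2000 were not simulated. The search gives a recovered library its genotype alone, and the reads of Xist then match it to the female or the male animal.

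Alternatives on recovered reads used limma (version 3.58.1, R 4.3.3) over 12425 genes, with voom and its offset of 0.5 or a trend on log2 of normalized reads plus 1. In a simulation of that fit, 15 of 97 genes changed 1 unit in log2, 102 of 103 changed 2 units and 0 of 12225 unchanged genes were called. The simulated reads held no trend with transcript length and no library that stood apart, unlike these data, so these rates need not hold here. Transcript lengths and positions are from GENCODE vM21 on GRCm38, matched by Ensembl identifier for 12517 of the tested genes, taking the longest principal transcript. The length of all exons joined was used first, and the transcript length was chosen after its results were seen. Both are given. Promoters are from RefSeq.

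All 34 members are named, in full where called or highest in a role, and the other lists by their called genes and defining markers. Of the related genes that were not called, Acat2 and Acly, and of the markers Zbtb7b, Itgam, Cd68, Eomes and Ncr1, were named after their values were seen. Members and lists were chosen with earlier results of these data known. Python 3.11.15, numpy 2.4.6, scipy 1.17.1, pandas 2.3.3 and statsmodels 0.14.6 were used.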

Additional observations from a re-analysis of the deposited data

Results flagged for a closer look

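Abca1 and Sc5d differed in opposite directions in the larger and the smaller libraries, each beyond counting error at the 95% level, where the larger libraries go with the females and the smaller with the males. The log2 ratio of cTKO over WT for Abca1 was 2.43 (interval 2.21 to 2.65) in the larger libraries and -0.50 (-0.77 to -0.23) in the smaller ones. For Sc5d it was -0.33 (-0.43 to -0.23) in the larger libraries and 0.18 (0.06 to 0.30) in the smaller ones. With 1 library of each genotype and size, the difference was not tested, and the intervals cover counting error only. The Abca1 transcript has 10262 bases and lies in the longest of the 10 length classes, where the median log2 ratio over all genes was 0.93 in the larger libraries and 0.10 in the smaller ones.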

How the results depend on the processing

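The 14 alternatives comprised 12 planned and 2 by length that were chosen after seeing the data. No call turned its direction under any of them. The count of members called higher (1) became 0 when fold changes were re-centred by transcript length, 0 by the length of all exons, and 0 with limma voom, limma trend or total reads as library size, and 2 with a term for the larger and smaller library. Leaving out each library in turn gave 0 to 5. The count of members called lower (4) became 2 at an adjusted p under 0.01, 2 with limma trend and 3 by transcript length, limma voom or total reads, and leaving out each library in turn gave 0 to 10. It was lowest without the larger WT library and highest without the smaller cTKO library, and so was the count of all genes called lower. The ranges with a library left out are therefore not read as changes of the members alone. In these fits a lone library is assumed to vary like the others. With all 4 libraries, limma voom called 1123 of 12425 genes higher and 312 lower, limma trend 1006 and 255, and the size term 1732 and 513. Related genes called higher (2) became 1 with a mean of at least 10, 1 at 0.01, 3 when re-centred on the median and 4 with the size term, and 2 to 4 with a library left out. Related genes called lower (1) became 0 at 0.01, 0 with limma voom, limma trend or total reads, 2 by transcript length and 2 with the size term, and 0 to 7 with a library left out.

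Sqle lost its call in 1 of the 14 alternatives, Msmo1 in 2, Fdps in 6, Lss in 7 and Fasn in 8, and each kept its direction in all 14. The causes were not tested. The 2 definitions of length differed for Fdps, called by the length of all exons and not by transcript length (adjusted p = 0.110), and for Fasn gave Benjamini-Hochberg adjusted p-values of 0.0567 by all exons and 0.141 by transcript. By all exons, 14 of 17 cholesterol enzymes lay below the median of their length class with a median difference of -0.52, against 15 of 17 and -0.56 by transcript.

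Members that were not called and changed sign were as follows. Re-centring on the median of -0.10 gave Sc5d a log2 fold change of 0.0274 and Dhcr7 0.0859. Transcript length gave Mvd 0.0852 and Dhcr7 0.199, and the length of all exons gave Mvd 0.0720, Sc5d 0.0258 and Dhcr7 0.021. Total reads gave Dhcr7 0.053. Leaving out each library in turn, Sc5d ran between -0.211 and 0.0622, Dhcr7 between -0.153 and 0.138, Stard4 between -0.0451 and 0.667, Abcg1 between -1.32 and 0.701 and Acaca between -0.169 and 1.37.

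The labels give the genotypes no shared replicate numbers, so animals were paired by sex alone, through the term for the larger and smaller library. That fit called 2 of 32 members higher, Fasn and Abca1, and 4 lower. Of all 12425 genes fitted, it called 1732 higher and 513 lower. Reads under the floor of 3, as for Scd1 and Fads2, limit those genes to a statement of counts.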
